A study of Mus musculus with 319 samples.

Results

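Among sorted thymic tuft cells, 61 of 300 cells carried high levels of MHC class II transcripts. Each sample was 1 well of a plate, and the wells held RNA-seq libraries made by Smart-seq2, a full-length protocol, with ERCC spike-in RNA. A cell was a member when H2-Aa, H2-Ab1, H2-Eb1 and Cd74 together reached 2500 CPM, where CPM is counts per 1000000 reads that are not from spike-ins. It was compared with cells of the same set of wells that lay from 250 to 2500 CPM, called comparison cells here: 17 in the June5 set, 33 in June29, 52 in wild-type batch 2 and 49 in Aire-/-. The other 88 cells were under 250 CPM. Since these 4 genes chose the members, their levels are a description and no test was made on them.

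All mice carried Flare25, a reporter of Il25, on both alleles (Flare25/Flare25), and the wild-type wells are of strain C57BL/6.Il25. The other genotype is Flare25/Flare25 Aire-/- (strain C57BL/6.Il25.Aire). Mice were naive, labelled as of mixed sex, and 6 weeks old, apart from 1 comparison cell labelled 5 weeks. Thymi were pooled, and the sources do not say how many pools a set holds. The gate took cells negative for UVBlue, CD11c and CD45 and positive for EPCAM and Flare25, with low surface MHCII (MHCIIlo), so every member came from an MHCII-low gate and from cells in which the reporter was on. Of 319 samples, 314 were single-cell wells, and 300 passed the limits of 10000 reads, 1000 genes and at most 20% mitochondrial reads. They form 4 sets: June5 (29 cells) and June29 (87 cells) of batch 1, and wild-type (89 cells) and Aire-/- (95 cells) wells of batch 2. No label ties a cell to an animal, so the set is the unit of every test, and the labels do not say whether sets came from separate animals. The p-values therefore measure only the spread between these sets. Sex-linked reads differed between sets: June29 held 66 cells with Y-linked reads alone and 0 with Xist alone, and the wells labelled Aire-/- held 85 with Xist alone and 0 with Y-linked reads. Wild-type batch 2 held 42 and 30, so genotype and set move with sex. Gene reads per kept cell ranged from 45266 to 2927690.

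MHC class II molecules are pairs of an alpha and a beta chain that show peptides to CD4 T cells. H2-Aa and H2-Ab1 encode the alpha and beta chain of H2-A, H2-Eb1 encodes the beta chain of H2-E, and Cd74 encodes the invariant chain, which fills the groove until lysosomal cathepsins degrade it. H2-DM (H2-DMa with H2-DMb1 or H2-DMb2) then exchanges the remaining fragment for peptide, and H2-DO (H2-Oa with H2-Ob) restrains H2-DM. Their genes share an upstream module of an X box and a Y box, which the RFX and NF-Y complexes bind and through which the coactivator CIITA acts. In the thymus, dendritic cells, B cells, cortical epithelium and mature medullary epithelium are known for high class II. Tuft cells are epithelial cells with taste-type signalling, defined by Pou2f3 and Trpm5.

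The upstream windows of 5 class II genes are shown to set those that match the letters given below for both boxes beside those that do not. Each line gives the 150 bases before a gene's start in RefSeq (build GRCm38.p6), on the gene's strand, 5′ to 3′. Capitals mark matches on either strand to AACNGATG, an X-box-like motif, to CCAAT, the Y box (ATTGG on the other strand), and to TGACGTCA, a CRE.
H2-Aa, chr17:34287824-34287973, minus strand: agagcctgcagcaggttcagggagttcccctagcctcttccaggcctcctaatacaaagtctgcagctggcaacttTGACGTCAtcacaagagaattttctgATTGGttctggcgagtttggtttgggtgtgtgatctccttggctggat
H2-Eb1, chr17:34305717-34305866, plus strand: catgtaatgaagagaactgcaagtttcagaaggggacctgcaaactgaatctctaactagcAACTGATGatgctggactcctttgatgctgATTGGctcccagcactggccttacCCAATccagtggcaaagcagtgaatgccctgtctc
H2-DMb1, chr17:34153041-34153190, plus strand: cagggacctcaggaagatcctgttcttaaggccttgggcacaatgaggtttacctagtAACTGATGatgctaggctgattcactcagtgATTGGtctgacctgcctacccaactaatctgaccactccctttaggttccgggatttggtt
H2-DMb2, chr17:34145099-34145248, plus strand: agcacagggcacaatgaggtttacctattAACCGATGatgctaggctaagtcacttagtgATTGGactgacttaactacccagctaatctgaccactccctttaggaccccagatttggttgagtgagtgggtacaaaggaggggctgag
H2-Oa, chr17:34092229-34092378, plus strand: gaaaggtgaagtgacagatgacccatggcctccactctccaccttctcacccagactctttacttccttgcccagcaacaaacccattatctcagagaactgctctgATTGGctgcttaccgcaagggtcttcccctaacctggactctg
With positions counted back from the gene's start, H2-Eb1 had the X-box-like match at -89 and Y boxes at -59 and -35. H2-DMb1 had the first motif at -92 and the second at -61, and H2-DMb2 had them at -121 and -90. H2-Aa had a CRE at -74 and a Y box at -48, and H2-Oa had a Y box at -43, neither with the X-box-like letters. Of windows not printed, that of H2-Ob had a Y box alone, at -57, and both RefSeq windows of H2-DMa had none of the 3 motifs. Over 32851 RefSeq windows of this length, the X-box-like letters occurred in 1.14%, CCAAT in 24.5% and TGACGTCA in 1.36%. Both of the first motifs occurred in 83 windows (0.253%), among them that of H2-Eb2, another class II beta chain gene. The letters were chosen after looking at these windows, and a match is not a measured binding site. A window without the letters is likewise not shown to lack the module.

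The level of class II spanned a wide range among members. The lowest member had 2585 CPM, the median member 4022 CPM and the highest 64360 CPM, a June29 cell. The highest comparison cell had 2397 CPM. Of the 61 members, 16 lay within 25% above the limit, and 13 comparison cells lay within 20% under it, so the limit crosses a continuous range. At the other end, 14 members had 10000 CPM or more: 4 in June29, 4 in wild-type batch 2 and 6 among wells labelled Aire-/-.

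**Figure D1:**
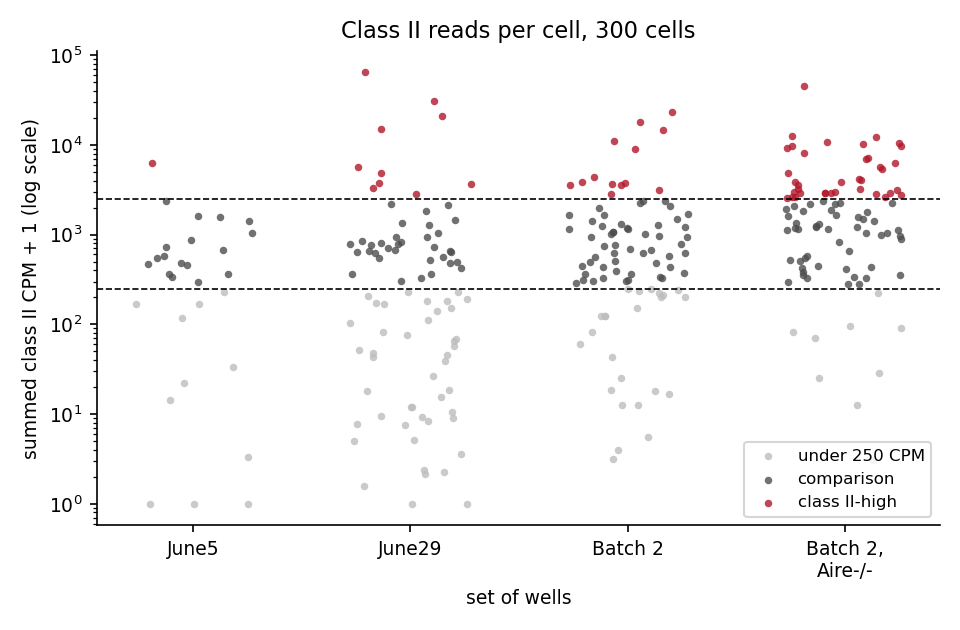
Summed CPM of H2-Aa, H2-Ab1, H2-Eb1 and Cd74 (plus 1, log axis) in each of 300 cells, by set of wells. Dashed lines mark 250 and 2500 CPM, and the 61 members are in red, above the upper line, with cells just under that line in each set.

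Members made up 3.45% of June5 cells (1 of 29, exact 95% Clopper-Pearson interval 0.0873 to 17.8%) and 11.5% of June29 cells (10 of 87, 5.65 to 20.1%). In batch 2 they were 14.6% of wild-type cells (13 of 89, 8.01 to 23.7%) and 38.9% of cells labelled Aire-/- (37 of 95, 29.1 to 49.5%). The intervals cover counting error only, and with 1 set per genotype in batch 2 and no animal named the difference has no replicate check. Within the authors' batch number 1, members were 8 of 48 wild-type and 20 of 48 Aire-/- cells, and within number 2 they were 5 of 41 and 17 of 47. Among cells with Xist reads and no Y-linked reads, members were 5 of 42 in wild-type batch 2 and 32 of 85 in wells labelled Aire-/-. Members were 4 of 30 wild-type batch 2 cells with Y-linked reads alone, and the wells labelled Aire-/- held no such cell to set beside them. Aire itself reached 5 reads in 15 of 37 members labelled Aire-/- and in 4 of 24 wild-type members. The sources used here do not say which part of Aire is deleted, so reads over the whole gene do not check that label.

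All 4 chains were broadly present. At least 5 reads were seen for H2-Ab1 and Cd74 in 61 members, for H2-Aa in 60 and for H2-Eb1 in 59, and 58 members reached 5 reads for all 4 genes, against 40 comparison cells. Per kilobase of exon, Cd74 stood highest of the 4 in every set, at 1331 CPM per kb in June5, 2854 in June29, 1910 in wild-type batch 2 and 1471 in wells labelled Aire-/-. H2-Aa stood lowest of the 4 in every set, at 375, 812, 386 and 388 CPM per kb in the same order. H2-Ab1 and H2-Eb1 changed places. H2-Ab1 was the higher in June5, June29 and wild-type batch 2 (673, 2049 and 850 against 469, 1041 and 559 CPM per kb). H2-Eb1 was the higher in wells labelled Aire-/- (616 against 544). The order rests on the length used, all annotated exon bases of a gene (3798 for H2-Aa, 1944 for H2-Eb1). In CPM not divided by length, H2-Eb1 stood lowest in every set, at 911, 2024, 1087 and 1197 CPM. H2-Ab1 was then above H2-Eb1 in wells labelled Aire-/- too (1398 CPM), and above Cd74 in June29 (5263 against 4791 CPM).

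Members carried tuft markers, though in unequal number. Each of the 61 had at least 3 of 30 tuft core genes at 5 or more reads, with a median of 23 and a maximum of 28. No comparison cell had fewer than 14, while single members had 3, 5, 6 and 12. Whether those members are tuft cells was not tested. Trpm5, the cation channel of taste-type signalling, reached 5 reads in 59 members, and Avil, which encodes advillin, a protein that binds actin, in 59. Pou2f3, the transcription factor that specifies tuft cells, did so in 50 members. Its level was 301 CPM in the June5 member, 267 in June29 members, 425 in wild-type batch 2 members and 492 in members labelled Aire-/-, against 425, 196, 451 and 501 CPM in comparison cells.

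The tuft programme stood lower in members than in comparison cells. The median cell had 30530.5 CPM over the 30 tuft core genes in the June5 member against 41798 in comparison cells, 11409 against 34140 in June29, 29084 against 35001 in wild-type batch 2 and 36371 against 38111 in wells labelled Aire-/-. The difference had 1 sign in 4 of 4 sets (exact sign-flip permutation test, two-sided p = 0.13, the smallest that 4 sets allow). It was smallest in the wells labelled Aire-/-, which hold most members. Among cells with under 2 markers of the Aire list and of each haematopoietic list (described below), it had the other sign there, at 39391 CPM in members against 39034. June29 and wild-type batch 2 kept theirs, at 18834 against 33027 and 29084 against 35542, and June5 had no member left. The 14 members at 10000 CPM or more of class II had a median of 11409 CPM of tuft core genes, with a lowest of 2667 and a highest of 61776, and the other 47 had a median of 33788. The lowest tuft core level, 2667 CPM with 5 core genes at 5 reads, was in a wild-type batch 2 cell at 14538 CPM of class II. Of the 30 core genes, 14 had lower CPM in members in all of the 3 sets with 10 or more members, and 0 had higher CPM. Among 8972 genes at 20 CPM or more (mean over the 3 sets of the class with the higher CPM), 14.4% were lower and 13.2% higher in all 3 sets. The median log2 fold of the 30, as a mean over the 3 sets, was -0.60, and that of the 8972 genes was -0.05.

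Among these 14 were genes for taste-type signalling, such as Gnat3 (gustducin), Gng13 and Plcb2, and the keratins Krt8 and Krt18. Krt8 stood at 5617, 5050, 5149 and 7093 CPM in members of June5, June29, wild-type batch 2 and wells labelled Aire-/-, against 8395, 7715, 6173 and 7902 CPM. Ptgs1, a cyclooxygenase, stood at 322, 78.1, 298 and 797 CPM against 1031, 436, 529.5 and 819 CPM. Gnb3, the G protein beta subunit of taste signalling, is not in the core list and stood at 2444, 2278, 1317 and 3809 CPM against 4646, 6315, 4302 and 5116 CPM. For each of the 3 genes the members' sum was the lower in 4 of 4 sets, by least in the wells labelled Aire-/-. In edgeR's quasi-likelihood test the log2 fold was -1.35 (SE 0.25) for Gnb3, -1.48 (SE 0.54) for Ptgs1 and -0.61 (SE 0.22) for Krt8, and the adjusted p of each was 0.9995. The median log2 fold over all genes in that fit was -0.69, so Krt8 was not lower there than the typical gene.

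**Figure D2:**
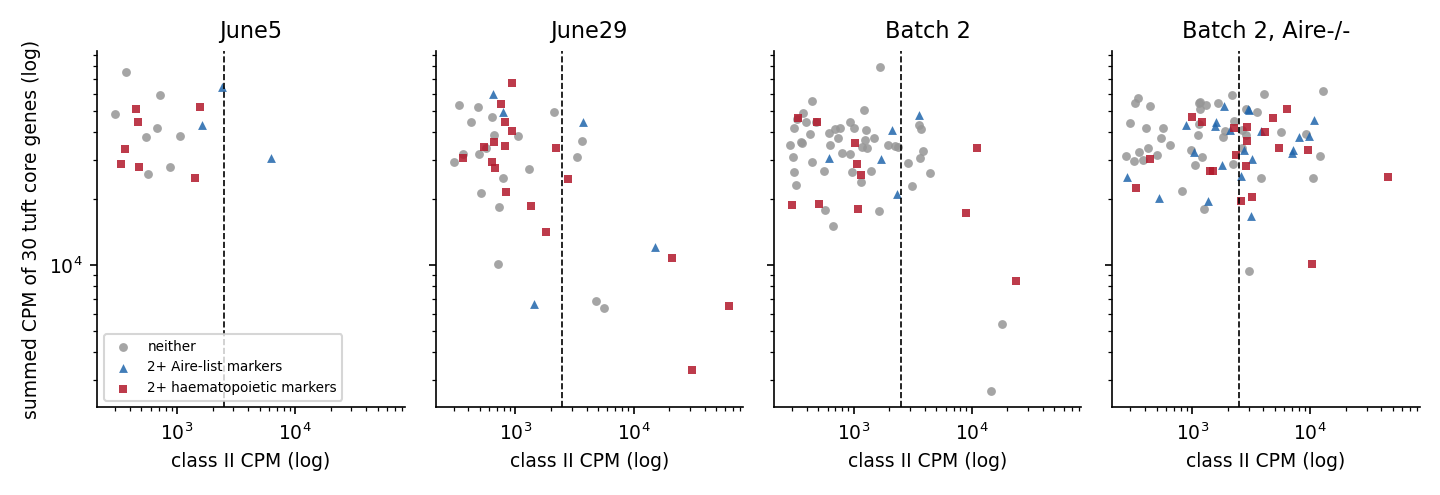
Summed CPM of 30 tuft core genes against class II CPM (both log axes) for members (right of the dashed line at 2500 CPM) and comparison cells, 1 panel per set. Red squares are cells with 2 or more markers of a haematopoietic list, blue triangles other cells with 2 or more Aire-list markers. The members with the least tuft core CPM are in June29 and wild-type batch 2.

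Some members also carried reads of other cell types, which the gate should have removed (CD45 and CD11c negative) or which are epithelial. Such reads were not confined to members. Ptprc, which encodes CD45, reached 5 reads in 18 members, 39 comparison cells and 28 cells under 250 CPM. At least 2 of 10 pan-haematopoietic genes did so in 100, 80, 76.9 and 91.9% of June5, June29, wild-type batch 2 and Aire-/- members. In comparison cells the shares were 82.4, 72.7, 73.1 and 85.7%, and 63 cells under 250 CPM also had 2. This list is not among the haematopoietic lists used to leave out cells. At 5 or more reads, 2 or more markers of a list were seen as follows. The dendritic cell or macrophage list (18 genes) reached this in 8 of 61 members (13.1%, exact interval 5.84 to 24.2%) and in 6 comparison cells (3.97%, 1.47 to 8.45%). The thymocyte list (14 genes) did so in 4 members and in 0 comparison cells, which allows a share of up to 1.99%. The B cell list (14 genes) did so in 16 members (26.2%) and 31 comparison cells (20.5%). Ighm, the mu heavy chain gene, reached 5 reads in 12 members and 11 comparison cells, Pax5 in 5 and 3, and Igkc in 4 and 1. Ebf1 went the other way, with 5 reads in 7 members, 39 comparison cells and 40 cells under 250 CPM. Ms4a1 and Blk had 0 reads in members, while Cd79b reached 5 reads in 37 members, 91 comparison cells and 26 cells under 250 CPM. Ebf1 and Cd79b both count as markers of this list, so 2 of its markers need not mean B cell reads.

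Markers of these 3 haematopoietic lists were more frequent in the highest members. Of the 14 members at 10000 CPM or more, 7 had 2 B cell markers, 5 had 2 dendritic cell or macrophage markers and 4 had 2 thymocyte markers, against 9, 3 and 0 of the other 47. Tyrobp, an adaptor of myeloid receptors, had 304, 110 and 2.83 CPM in members of June29, wild-type batch 2 and wells labelled Aire-/-, and 1 member held 59.2%, 100% and 100% of those reads. Siglech, a plasmacytoid dendritic cell marker, reached 5 reads in 3 members. Zbtb46, a transcription factor of dendritic cells, reached 5 reads in 7 members and 4 comparison cells, and Fcer1g, a receptor adaptor, in 7 and 5. Of the T cell coreceptor genes, Cd4 reached 5 reads in 4 members, 0 comparison cells and 3 cells under 250 CPM. Cd8b1 did so in 3 members and 1 comparison cell, and Cd8a in 0 and 1. Also on the thymocyte list, Themis reached 5 reads in 2 members and 11 comparison cells, and Lat in 0 and 1. Markers at 0 reads in members were 5 of 18 on the dendritic cell or macrophage list, such as Clec9a and Csf1r, and 4 of 14 on the thymocyte list, such as Rag1 and Rag2. Summed over the list, dendritic cell or macrophage genes ranged from 93.9 to 1468 CPM over the 4 sets in members and from 21 to 164.2 CPM in comparison cells. Thymocyte genes ranged from 0 to 365 CPM and from 16.9 to 82.8 CPM, and B cell genes from 2.57 to 472 CPM and from 218 to 335 CPM.

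Epithelial lists were seen more often in members too. Of members, 28 (45.9%) had 2 or more of 8 Aire-expressing medullary markers, against 25 comparison cells (16.6%). By set this was 1 of 1, 3 of 10, 3 of 13 and 21 of 37 members. In comparison cells it was 4 of 17, 6 of 33, 4 of 52 and 11 of 49. Aire, the regulator of tissue antigens in medullary epithelium, reached 5 reads in 19 members and 23 comparison cells. Fezf2, another such regulator, did so in 16 and 19, and Utf1 in 22 and 25. For the list of medullary epithelium low in class II (9 genes) the counts were 26 members (42.6%) and 23 comparison cells (15.2%), and for cortical epithelium (10 genes) 17 (27.9%) and 18 (11.9%). By set in the same order, the former was in 100, 60, 61.5 and 29.7% of members against 11.8, 21.2, 17.3 and 10.2%. The latter was in 0, 40, 30.8 and 24.3% of members against 11.8, 15.2, 7.69 and 14.3%. Ccl21a, a chemokine of medullary epithelium, reached 5 reads in 15 members and 21 comparison cells. Krt5, a basal keratin, did so in 7 and 3, Krt14 in 3 and 10, and Tbata, of the cortical list, in 21 and 23. In each of these 2 lists 1 gene had 0 reads in members, Krt15 and Psmb11. In all, 26 members had under 2 markers of the Aire list and of each of the 3 haematopoietic lists. They include the members with 3, 5, 6 and 12 tuft core genes at 5 or more reads. The part of other cell types in the results below was not tested apart from leaving out cells with such markers.

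**Figure D3:**
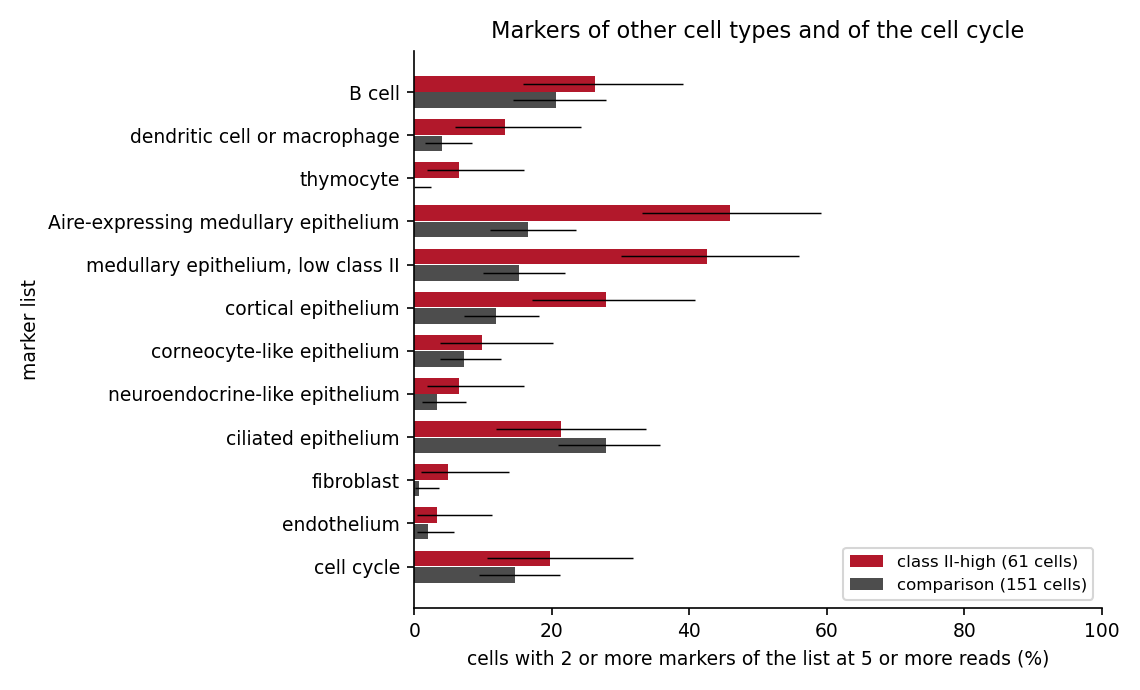
Share of members (61 cells) and comparison cells with 2 or more markers of a list at 5 or more reads, over all sets. Bars start at 0 and lines are exact 95% intervals for counting error. The Aire, low class II medullary and cortical lists show the widest gaps, at 45.9% against 16.6%, 42.6% against 15.2% and 27.9% against 11.9%. These shares pool all sets, and wells labelled Aire-/- supply 37 of the 61 members and 49 comparison cells.

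Depth moved with class II. The median member had 1554970 gene reads in June5, 1649760 in June29, 704015 in wild-type batch 2 and 723418 in wells labelled Aire-/-, against 723828, 1343520, 619770 and 625490 in comparison cells. Members had more reads, more genes, a lower mitochondrial share and a lower spike-in share in 4 of 4 sets, each with an exact sign-flip permutation p of 0.13, the smallest possible. With cells thinned to 230380 reads, 2 members and 17 comparison cells were too shallow, and members had more genes in 3 of 4 sets (exact permutation p = 0.25).

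Over all other genes, members and comparison cells were compared by edgeR on reads summed per set, with the set as a block. Of 13812 genes tested, 0 were called higher (0.0%) and 0 lower (0.0%) at an adjusted p under 0.05, and the smallest adjusted p was 0.9995. At an unadjusted p under 0.05, 46 genes were higher (0.333%) and 296 lower (2.14%). DESeq2 on the same sums called 66 higher (0.478%) and 378 lower (2.74%). At an unadjusted p under 0.05 it had 286 higher (2.07%) and 1550 lower (11.2%). The median log2 fold over all genes was -0.69 in the edgeR fit. June5 had a single member, in which many genes had no read.

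Genes are therefore named by size in the 3 sets with 10 or more members, a rule that was set after the number of members per set was known and is no test. It asks for 20 CPM or more in the class with the higher CPM, as a mean over the 3 sets. Each set must also show a fold of at least 2 (log2 of 1, with 1 CPM added to both sums). In each set, too, at least 15 percentage points more cells of the higher class must have 5 or more reads. Of 8972 genes, 8 passed as higher in members (0.0892%): H2-DMb1, Ctss, Ctsh, Rftn1, Ly6e, AW112010, Cyfip2 and Ngrn. As lower, 2 passed (0.0223%): Cachd1 and Gm30694. Of these 10, 7 had an unadjusted edgeR p under 0.05 and DESeq2 called 3: Ctsh, AW112010 and Cachd1. With cells thinned to equal depth, Ctsh, Ctss, Rftn1, AW112010, Cachd1 and Gm30694 still passed. H2-DMb1, Ly6e, Cyfip2 and Ngrn then did not. Without June29, 33 genes passed as higher, and without wild-type batch 2, 26 did. Without the wells labelled Aire-/-, 1.93% of genes passed as higher.

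**Figure D4:**
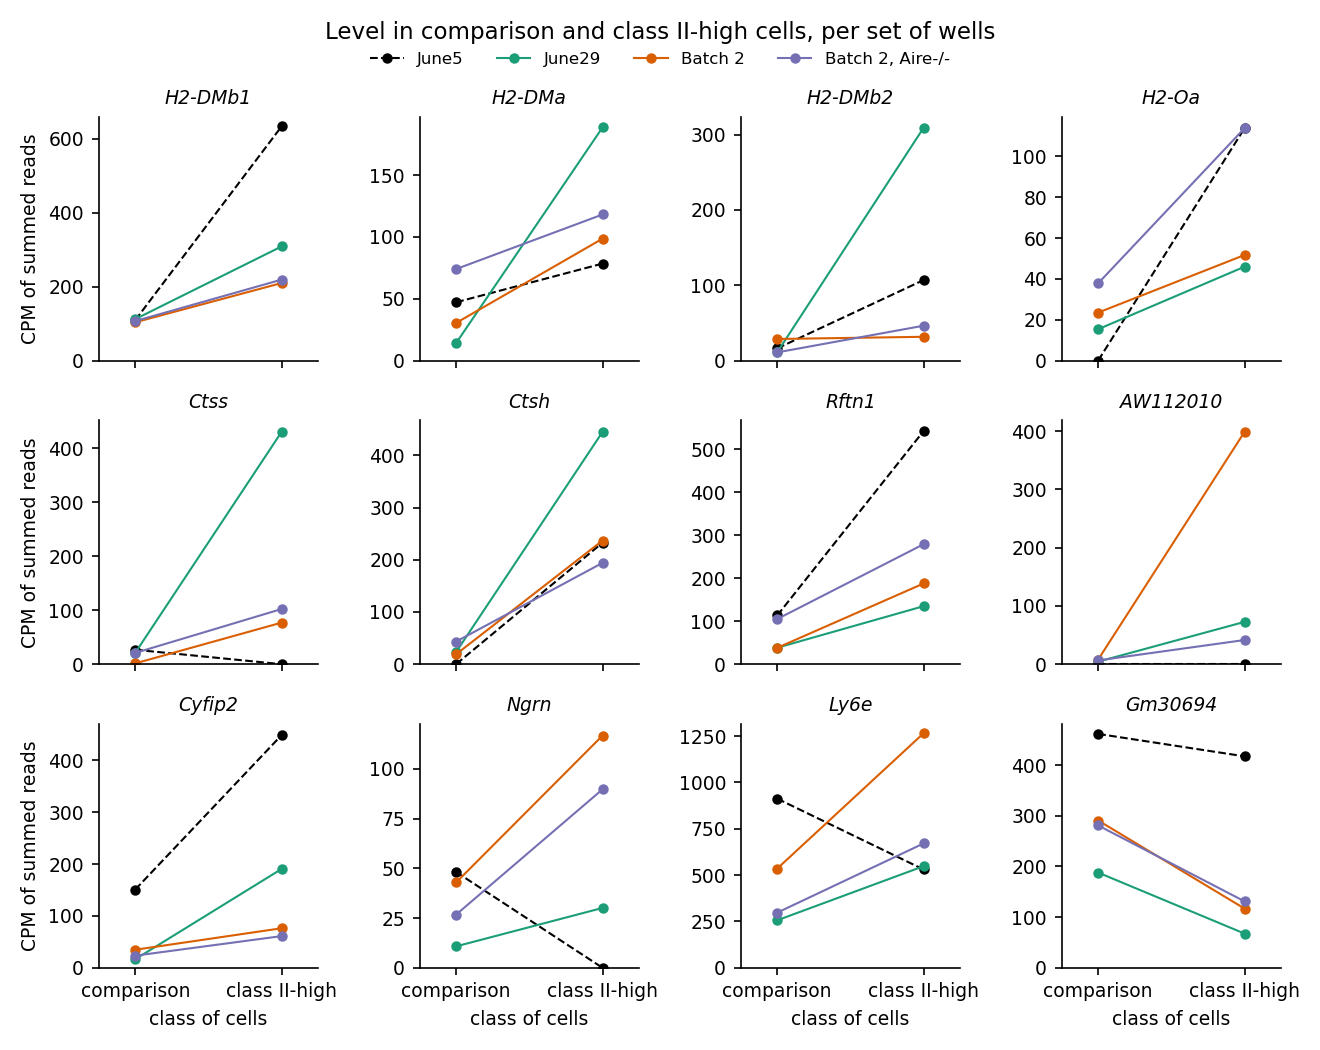
CPM of summed reads in comparison cells and members (class II-high) of each set, linear axes from 0, for 12 genes. The dashed line is June5, with 1 member. H2-DMb1 stands from 103.5 to 112.1 CPM in comparison cells and from 209.9 to 634 CPM in members.

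Of the genes of peptide exchange, H2-DMb1 passed the size rule. With cells thinned to equal depth it did not pass, and H2-DMa did. H2-DMb1, a beta chain of H2-DM (chr17:34153072-34160230 in GRCm38, as are the other gene positions, from GENCODE), had 634 CPM in the June5 member, 309 in June29 members, 209.9 in wild-type batch 2 members and 219 in members labelled Aire-/-, against 109.4, 112.1, 103.5 and 106.8 CPM in comparison cells. It reached 5 reads in 47 of 61 members, 70 comparison cells and 18 cells under 250 CPM. Single June29 members ranged from 0 to 983 CPM with a median of 249, and June29 comparison cells from 0 to 608 with a median of 2.00. The ranges of single cells overlap in every set with more than 1 member. The edgeR log2 fold was 1.30 (SE 0.39, adjusted p 0.9995). Its mean over the 3 sets, 1.17 ± 0.25 (SD, n = 3), was 0.66 without cells with haematopoietic markers and 0.41 without those with Aire-list markers as well. In that last comparison the 4 June29 members had 88 CPM, less than the 153.1 CPM of comparison cells.

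H2-DMa, the alpha chain of H2-DM (chr17:34119541-34139101), stood at 78.5, 188.7, 98.7 and 118.2 CPM in members, against 47.2, 14.2, 30.5 and 74.1 CPM. It reached 5 reads in 35 members (57.4%), 36 comparison cells (23.8%) and 4 cells under 250 CPM (4.55%). It missed the size rule in the wells labelled Aire-/-, where its log2 fold was 0.67. H2-DMb2, the other beta chain, stood at 106.8, 309, 31.5 and 46.2 CPM against 16.2, 10.9, 28.6 and 10.8 CPM. In June29, 1 member held 77.9% of its reads. H2-DMb1 and H2-DMb2 are near-identical copies, and counting could have split their reads.

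H2-DO was less often seen. H2-Oa, its alpha chain, reached 5 reads in 22 members, 28 comparison cells and 2 cells under 250 CPM, and H2-Ob, its beta chain, in 9, 2 and 1. H2-Oa stood at 113.8, 46, 51.7 and 113.8 CPM in members and at 0, 15.3, 23.5 and 37.8 CPM in comparison cells. H2-Ob had 52.8 CPM in wild-type batch 2 members and 29.1 in members labelled Aire-/-, and 0 reads in June5 and June29 members. Ciita, the coactivator of class II genes, reached 5 reads in 5 members and in 0 comparison cells, which allows a share of up to 1.99%. In June29 and wild-type batch 2, 1 member held 98.6% and 98.3% of its reads in members. Of the list of class II transcription genes, which holds Ciita with RFX, NF-Y and Creb1 genes, 4 had 20 CPM. In all 3 sets 0 of these were higher and 1 lower in members, Nfyb, with a median of -0.82 for the mean log2 fold. Nfyb, an NF-Y subunit, reached 5 reads in 7 members and 27 comparison cells. Of 6 genes in the list that holds H2-DM and H2-DO, 5 had 20 CPM, and 4 of these (H2-DMa, H2-DMb1, H2-DMb2 and H2-Oa) had higher CPM in members in all 3 sets. Beside both lists, 13.2% of all genes were higher and 14.4% lower in all 3 sets.

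**Figure D5:**
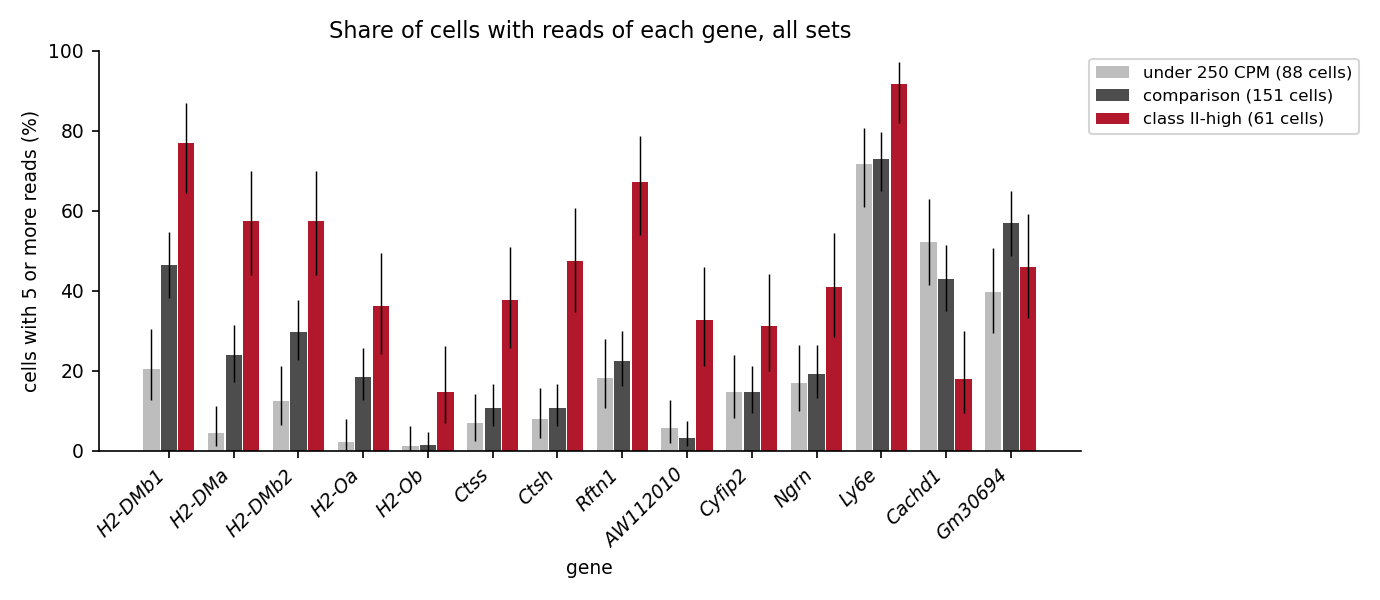
Share of cells with 5 or more reads of each gene in cells under 250 CPM of class II, comparison cells and members, over all sets. Bars start at 0 and lines are exact 95% intervals for counting error. H2-DMa goes from 4.55% to 23.8% to 57.4%, while Cachd1 is lowest in members.

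Among cathepsins, Ctsh and Ctss passed the size rule. Ctsh, the lysosomal aminopeptidase cathepsin H (chr9:90054152-90076089), had 233, 445, 237 and 194 CPM in members of June5, June29, wild-type batch 2 and wells labelled Aire-/-, against 0.218, 23.6, 19.2 and 43.4 CPM in comparison cells. It reached 5 reads in 29 members and 16 comparison cells, and members were the higher in 4 of 4 sets. Its edgeR log2 fold was 4.31 (SE 1.29, adjusted p 0.9995). The mean over the 3 sets was 3.29 ± 1.05 (SD, n = 3), and from 2.38 to 4.37 over the alternatives.

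Ctss, which encodes cathepsin S, the protease known for degrading the invariant chain (chr3:95526786-95556403), had 0, 431, 77 and 102.3 CPM in members against 26.7, 21.1, 1.47 and 20.8 CPM. It was above 5 reads in 23 members and 16 comparison cells. The June5 member had no Ctss read, so only 3 of 4 sets had the higher level in members. In June29 the highest levels, 1822, 1551 and 1506 CPM, were in 3 members with 5, 7 and 8 dendritic cell or macrophage markers. The mean log2 fold over the 3 sets, 3.84 ± 1.43 (SD, n = 3), was 2.69 without cells with haematopoietic markers and 2.27 without those with Aire-list markers as well. Ctss did not pass the size rule in either, and in the latter the June29 members had 0 CPM. Ctsl, the cathepsin of cortical epithelium, stood at 0, 265, 180 and 356 CPM against 646, 99.5, 97.2 and 124.4 CPM. Of 13 genes of this list, 5 had higher CPM in members in all 3 sets (Ctsh, Ctsl, Ctss, Ctsz and Cst3), and Ctsa had lower CPM. Of all genes, 13.2% were higher and 14.4% lower in all 3 sets.

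Rftn1, which encodes raftlin, a lipid raft protein known from B cells, had 542 CPM in the June5 member, 134.9 in June29 members, 187.7 in wild-type batch 2 members and 279 in members labelled Aire-/- (chr17:49992257-50190674). Comparison cells had 113.2, 38.3, 38 and 104.96 CPM. It reached 5 reads in 41 members (67.2%) and 34 comparison cells (22.5%), and at equal depth at least 1 read was seen in 50.0%, 69.2% and 77.1% of members of the 3 sets against 21.9%, 19.1% and 27.5%. The edgeR log2 fold was 1.73 (SE 0.44, adjusted p 0.9995). The mean over the 3 sets was 1.82 ± 0.44 (SD, n = 3). It was 1.78 without cells with haematopoietic markers and 0.51 when those with Aire-list markers were left out too, where 4 June29 members remained, at 0.187 CPM.

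AW112010, annotated as a lincRNA (chr19:11047612-11055808), had 0, 72.6, 399 and 41.5 CPM in members against 0, 4.36, 7.97 and 6.46 CPM. It reached 5 reads in 20 members, 5 comparison cells and 5 cells under 250 CPM. A single member held 61.6%, 44.6% and 42.6% of its reads in June29, wild-type batch 2 and wells labelled Aire-/-. Among cells with under 2 markers of each of the 4 lists, 11 of 26 members and 1 of 95 comparison cells had 5 or more reads. These members include a wild-type batch 2 cell with 6 tuft core genes at 5 or more reads and 2235 CPM of AW112010. The mean log2 fold over the 3 sets was 3.92 ± 1.49 (SD, n = 3), and 6.02 without cells with haematopoietic or Aire-list markers.

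Ly6e, a GPI-anchored protein induced by interferon, was already frequent in comparison cells. It stood at 531, 548, 1265 and 671 CPM in members and at 913, 256, 535 and 298 CPM in comparison cells, with the June5 member on the other side of its comparison cells. Cyfip2, a subunit of the actin-regulating WAVE complex, stood at 448, 190.5, 76.3 and 61.1 CPM against 150.8, 16.6, 34.8 and 23.5 CPM. Ngrn, which acts in mitochondrial ribosome assembly, stood at 0, 30.1, 116.7 and 89.7 CPM against 48.1, 10.8, 43 and 26.8 CPM.

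Cachd1, a protein related to calcium channel subunits, was less often seen in members. It had 3.22, 0.971, 41.2 and 34 CPM in members and 115.05, 55.9, 105.04 and 102.8 CPM in comparison cells, and it reached 5 reads in 11 of 61 members (18%), 65 comparison cells (43%) and 46 cells under 250 CPM. Members were the lower in 4 of 4 sets. Gm30694, annotated as a unitary pseudogene, had 417, 67.6, 116.9 and 131.2 CPM in members and 462, 187.98, 291 and 281 CPM in comparison cells. Its edgeR log2 fold was -1.22 (SE 0.36, adjusted p 0.9995).

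The other markers given for these cells were scarcer than the 4 chains. Ebi3, a subunit of IL-27 and IL-35, reached 5 reads in 10 members and 10 comparison cells, with 0, 18.5, 21.3 and 29.9 CPM against 8.89, 0.674, 15.1 and 6.49 CPM. Serpinb9, an inhibitor of granzyme B, reached 5 reads in 19 members and 25 comparison cells. In June29, where members had 761 CPM and comparison cells 53.5, 1 member held 99.99% of the Serpinb9 reads. Cd52, a surface protein of lymphocytes, reached 5 reads in 13 members and 11 comparison cells. Their mean log2 folds over the 3 sets were 2.02, 1.97 and 3.06, and -0.28, -1.23 and 0.23 without cells with haematopoietic or Aire-list markers. None of the 3 passed the size rule.

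Of 18 class I presentation genes, 11 had higher CPM in members in all 3 sets and 0 lower, against 13.2% and 14.4% of all genes. None (0) passed the size rule. The median of their mean log2 folds over the 3 sets was 0.42, against -0.05 over all genes. In the edgeR fit over 4 sets their median was -0.06, of the other sign, against -0.69 over all genes. Tapbp, the tapasin chaperone, stood at 1389, 443, 415 and 691 CPM against 359, 212, 337 and 380 CPM, and H2-T23, a non-classical class I gene, at 1403, 699, 1384 and 824 CPM against 604, 372, 813 and 610 CPM. Both were higher in 4 of 4 sets, with edgeR log2 folds of 0.83 (SE 0.29) and 0.62 (SE 0.23) and an adjusted p of 0.9995. B2m, the class I light chain, was higher in 3 sets and lower in June5, at 2718 against 4767 CPM.

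Of 10 costimulation and checkpoint genes at 20 CPM, 4 had higher CPM in members in all 3 sets (Cd86, Cd274, Icosl and Icam1) and 2 lower (Lgals9 and Cd24a), against 13.2% and 14.4% of all genes. The summed CPM of the list was lower in members in each of 4 sets, from 1815 against 4926 in June5 to 3594 against 4886 in wells labelled Aire-/-. Cd24a, a surface glycoprotein, made up most of it in comparison cells. Cd274, the checkpoint ligand PD-L1, stood at 147.3, 516, 157.1 and 109.97 CPM against 80.8, 167.4, 85.3 and 78.9 CPM. Icam1, an adhesion molecule for T cells, stood at 448, 134.3, 89.1 and 307 CPM against 104.5, 28.5, 7.05 and 2.48 CPM, and reached 5 reads in 13 members and 10 comparison cells. Cd86 reached 5 reads in 4 members, of which 1 held 99.9% of the June29 reads. Of 17 NF-kB pathway genes, 5 had higher CPM in members in all 3 sets and 1 lower (Map3k14), among the 5 Nfkbia, the feedback inhibitor, at 1700, 1389, 791 and 819 CPM against 599, 806, 709 and 497 CPM. Of 19 interferon response genes, 2 were higher in all 3 sets (Irf8 and Bst2) and 1 lower (Igtp), a share near the background, with a list median of 0.01.

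Tuft genes that mark other groups of these cells were also measured. Il25, the gene of the sorting reporter, reached 5 reads in 36 of 61 members and 80 comparison cells. Gp2, a microfold cell marker, reached 5 reads in 7 members and 43 comparison cells, at 0, 300.001, 546 and 59.6 CPM against 1751, 621, 587 and 1178 CPM. Spib, a transcription factor of microfold cells, stood at 909, 290.5, 473 and 553 CPM against 1111, 491, 709.9 and 715 CPM, lower in 4 of 4 sets. The edgeR adjusted p was 0.9995 for both.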

How the data were processed

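Read counts per gene and well were deposited by the authors as raw whole numbers. Per the submitters' processing notes, STAR, Subread, featureCounts 1.5.3, R 3.4.0 and GRCm38 were used, and neither the annotation release nor the strand setting is given in the sources used here. Reads carry no molecular identifiers. A deposited table of scores was not used. The 2 count tables hold 48887 entries, of which 92 are spike-ins and 48349 had a gene name in GENCODE M21 or the name tables, and 63 second identifiers of a symbol were left out. No sample column was unmapped (0). Of 14 wells not kept, 12 exceeded the mitochondrial limit, 1 was under the read limit and 1 was left out by the rule. No doublet caller was run.

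Members and lists were chosen with earlier results of these data known. Named genes are the 4 rule genes, the given markers, the 8 smallest p in each direction (since nothing passed the threshold), the top members of 30 lists, the genes past the size rule, and others named after their values were seen. Of those 8 in each direction, Rftn1, AW112010, Ctsh, H2-DMb1 and Gnb3 are in the report and the others are given as other observations. Reads were summed per set and class and tested with edgeR 4.0.16 (TMM, filterByExpr, set as block, since both sums of a set come from the same set of wells; standard errors follow from the F value), with DESeq2 1.42.0 and limma 3.58.1 as alternatives. On simulated counts over 13812 genes, the edgeR test recovered 82% of log2 changes of 3 and 99% of those of 5, with 3 false calls. The simulation gave every gene the same dispersion and no difference between sets. It therefore checks that the test runs and does not give its power on the real sums. Plots and other tests used Python 3.11.15.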

Additional observations from a re-analysis of the deposited data

Results flagged for a closer look

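A gap test over the 4 sets marked 2 of 16 values as far from the rest, and chance marks about 1 in 20. Both are in June5, which had 1 member: the log2 fold of Ngrn was -5.62 there, against 1.51 on average in the other 3 sets, and that of Ly6e was -0.78, against 1.17.

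Class II reads were also present in wells outside the comparison. The single-cell well that the rule leaves out, labelled Aire-/-, had 112770 CPM over the 4 genes, 7584 CPM of tuft core genes and 7 of 8 Aire-list markers at 5 or more reads. The 50-cell well of wild-type batch 2 had 9106 CPM and that labelled Aire-/- 4351 CPM, the opposite order to the share of members. A batch 1 well with no cell had 23 class II reads among 9892 gene reads, which is 2325 CPM.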

How the results depend on the processing

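No edgeR or limma alternative called a gene in either direction (smallest adjusted p 0.153, without cells with Aire-list markers), including the fit with no replicate block (0 higher and 0 lower, with 93 and 217 at an unadjusted p under 0.05), so leaving out the pairing by set changed no call. Only DESeq2 called genes, 66 higher and 378 lower, and the cause was not tested. Alternatives to the size rule were chosen after seeing the data. Of the genes considered, 0.0892% passed as higher and 0.0223% as lower. The shares were 0.0556% and 0.0667% with cells thinned to equal depth, 0.277% each way with members at 5000 CPM or more, and 0.0452% and 0.0113% with members at 1500 CPM or more. They were 0.3003% and 0.178% without cells with haematopoietic or Aire-list markers, and 0.0447% and 0.0% over all 4 sets. Without haematopoietic markers alone 0.0781% passed as lower. With 1 set left out, 0.294 to 1.93% passed as higher and 0.164 to 0.457% as lower, since fewer sets must agree, and the highest were without the wells labelled Aire-/-. All 10 named genes pass with a set left out or at 5 CPM, where the rule is weaker. Of the other 10 alternatives, Ctsh passed in 10, AW112010 in 9, Rftn1 in 8, Ctss in 6, H2-DMb1 and Gm30694 in 4, Cyfip2 and Ly6e in 3, and Cachd1 and Ngrn in 1. Over all 4 sets the mean log2 fold of Ngrn was -0.27. Of the values of named genes under an alternative, 42 moved by more than the spread between sets. Besides Ngrn, the given markers Ebi3 and Serpinb9 turned their sign under some alternatives. Ebi3 went from 2.02 to -0.30 without cells with Aire-list markers, and Serpinb9 from 1.97 to -1.78 without cells with haematopoietic markers. At a limit of 5000 CPM the share of members was 5.62% in wild-type batch 2 and 15.8% in wells labelled Aire-/-, and at 1500 CPM the latter was 52.6%. Single-cell depth limits scarce genes such as Ciita, H2-Ob and Ebi3.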

Other observations

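Among the 8 genes with the smallest p in the higher direction, 4 rested on few cells. Slc4a11 reached 5 reads in 5 members, Reg3g in 5, Rnase4 in 8 and Iglc3, an immunoglobulin light chain constant gene, in 7. Reg3g, an antimicrobial lectin, had 1572 CPM in June29 members, of which 1 member held 99.9%.

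Among the 8 in the lower direction, Cpe, a carboxypeptidase of secretory granules, reached 5 reads in 0 members, which allows a share of up to 4.92%, and 9 comparison cells. The other scarce ones were Stamos, Gm37800, Slc44a5, Prr11, 6430548M08Rik and Gm12968, which reached 5 reads in 0 members and in 6, 5, 9, 4, 11 and 10 comparison cells. Sucnr1, the succinate receptor of tuft cells, reached 5 reads in 3 members and 21 comparison cells, and its members in June5, June29 and wild-type batch 2 had 0 reads. Il23a, a subunit of IL-23, reached 5 reads in 11 members and 36 comparison cells. Sucnr1 and Il23a were named after their values were seen.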
